A study of Rattus norvegicus with 6 samples.

Results

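Complement components that connective tissue fibroblasts are known to make were followed in synovial fibroblast-like cells of arthritic rats cultured with 3 kinds of serum. The 9 genes were set as a list of names, with no threshold on their values: C1r, C1s, C2, C3, Cfb, Cfd, Cfi, Serping1 and Cd59, among 16499 symbols in the deposited table. Each was found, and where a symbol had more than 1 transcript row the most abundant row was taken.

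The cells came from the synovium of female Wistar rats with collagen-induced arthritis, a model of rheumatoid arthritis, at disease onset and before any therapy. As the labels give it, the cells from 2 rats were divided among 3 media, which gave 6 poly(A)-selected RNA libraries, 2 per condition. FBS was standard medium with fetal bovine serum, MS- held blood serum of untreated rats, and MS+ held blood serum of rats given 18 days of needle stimulation, named acupuncture in the labels and mechanical stimulation by the study. The description field of the MS- libraries says healthy and their disease field says rheumatoid arthritis, while the study calls the donors of this serum arthritic and untreated in one place and sampled ahead of therapy in another. With the libraries paired by number, all 3 conditions used cells of the same arthritic donors, grown on plastic and passaged. They differed, as far as the labels say, in the serum of the medium. If MS- serum was drawn before therapy, stimulation and time of sampling cannot be told apart in MS+ against MS-. The number of rats whose serum went into the cultures and the age of the animals were not given in the sources used here. A replicate here means a cell donor, so no p-value describes the spread between serum donors. In the fit on condition alone, the p-values describe the spread between cells of 2 rats. In the fit with the rat as a block, they describe how much the difference between sera varied between these 2 rats.

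Complement is a cascade of plasma proteases and the proteins they cut. The classical pathway starts when C1q binds a target and its proteases C1r and C1s cut C4 and C2 into a C3 convertase, the alternative pathway builds its convertase from C3b and factor B cut by factor D, and both cut C3, which leads to the membrane attack complex. C1 inhibitor, factor I and CD59 stop the cascade at successive steps. The liver supplies most of the circulating proteins, while fibroblasts of the joint lining are known as a local source whose output inflammatory cytokines can raise.

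The stretch before the transcription start is shown for the most abundant member, C1r, for the central component C3, which was barely read in these cells, and for Cd55, the complement gene outside the 9 with the largest change. They are the 250 bases upstream of the start in RefSeq, build GRCr8, written 5′ to 3′ on the strand of the gene, and capitals mark a match to a C/EBP motif. Of the 9 members, 4 (C1r, C3, Cfd and Cfi) had such a window.
C1r, chr4:159098763-159099012, plus strand: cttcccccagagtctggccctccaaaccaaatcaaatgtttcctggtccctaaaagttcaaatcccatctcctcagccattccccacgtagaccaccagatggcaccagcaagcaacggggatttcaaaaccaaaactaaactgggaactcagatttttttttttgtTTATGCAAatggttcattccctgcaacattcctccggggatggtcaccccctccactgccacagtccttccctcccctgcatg
C3, chr9:2201340-2201589, minus strand: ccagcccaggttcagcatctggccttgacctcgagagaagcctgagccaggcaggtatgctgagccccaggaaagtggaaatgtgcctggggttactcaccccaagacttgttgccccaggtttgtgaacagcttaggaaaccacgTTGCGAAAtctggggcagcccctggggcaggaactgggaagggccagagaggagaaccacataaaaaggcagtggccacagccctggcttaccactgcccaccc
Cd55, chr13:44438102-44438351, minus strand: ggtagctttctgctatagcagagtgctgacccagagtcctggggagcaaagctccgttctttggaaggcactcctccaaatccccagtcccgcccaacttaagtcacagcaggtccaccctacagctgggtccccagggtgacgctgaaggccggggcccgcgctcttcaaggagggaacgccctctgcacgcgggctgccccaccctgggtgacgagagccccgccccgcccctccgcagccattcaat

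These windows were searched on both strands for 6 motifs of factors that answer inflammatory or glucocorticoid signals. The motifs were C/EBP (TTGCNNAA), the interferon gamma element GAS (TTCNNNGAA), NF-kappaB (GGG and TTTCC with 2 bases between), the interferon element ISRE (GAAA and GAAA with 2 bases between), the glucocorticoid response element (GNACA and TGTNC with 3 bases between) and AP-1 (TGANTCA). The C1r window held 1 C/EBP match on the opposite strand, at window bases 168 to 175, ending 76 bases from the start site. The C3 window held 1 C/EBP match on its own strand, at bases 147 to 154 and 97 bases from the start site. None of the 6 motifs had a match in the windows of Cd55, Cfd or Cfi. Among 27457 windows of this length, 9.20% held the C/EBP motif, 7.52% GAS, 6.36% AP-1, 3.29% ISRE, 1.28% NF-kappaB and 0.364% the glucocorticoid element, so a match is a common property and is given as a description of these letters only.

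The libraries held 5463316 to 5991889 reads, recovered as whole numbers from the deposited values. Levels are in CPM, read counts relative to the library total after TMM scaling. They are not divided by transcript length, so levels are compared between libraries and not between genes. A count of 3 reads, used as the limit of detection in a library, was 0.491 to 0.551 CPM and covers counting error only. The label of the cells was checked against marker genes. Of 14 fibroblast markers with a row, 10 were at 1 CPM or more in every library, among them Col1a1, Vim, Thy1 and Pdgfra, while the matrix proteoglycans Lum and Dcn held at most 5 reads. Of 15 macrophage markers, 9 had 0 reads in all 6 libraries (Ptprc, Adgre1, Itgam, Aif1, Cd163, Lyz2, Fcgr3a, C1qa and C1qc). Cd14, a receptor that macrophages carry in high amount, was the only one at 1 CPM or more in every library, at 12.1 to 19.4 CPM. Of 9 blood cell markers, 8 had 0 reads, as did 5 of 6 hepatocyte markers. The rows of Ptprc, Aif1, Lyz2, Hbb and Fga overlap other rows, and reads that fall on both are dropped in the counting, so their 0 is uncertain.

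Of the 9 members, 5 were read in every library at 1 CPM or more: C1r, C1s, C2, Serping1 and Cd59. These are the proteases of the C1 complex, the catalytic subunit of the classical convertase, the C1 inhibitor and the membrane inhibitor CD59. The other 4 members were C3, Cfb, Cfd and Cfi, which are the central component, both proteases of the alternative pathway and the protease that inactivates C3b. They were at or near the limit of detection and did not pass the filter for testing. A bulk library cannot tell fewer cells making a transcript from less transcript per cell.

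**Figure D1:**
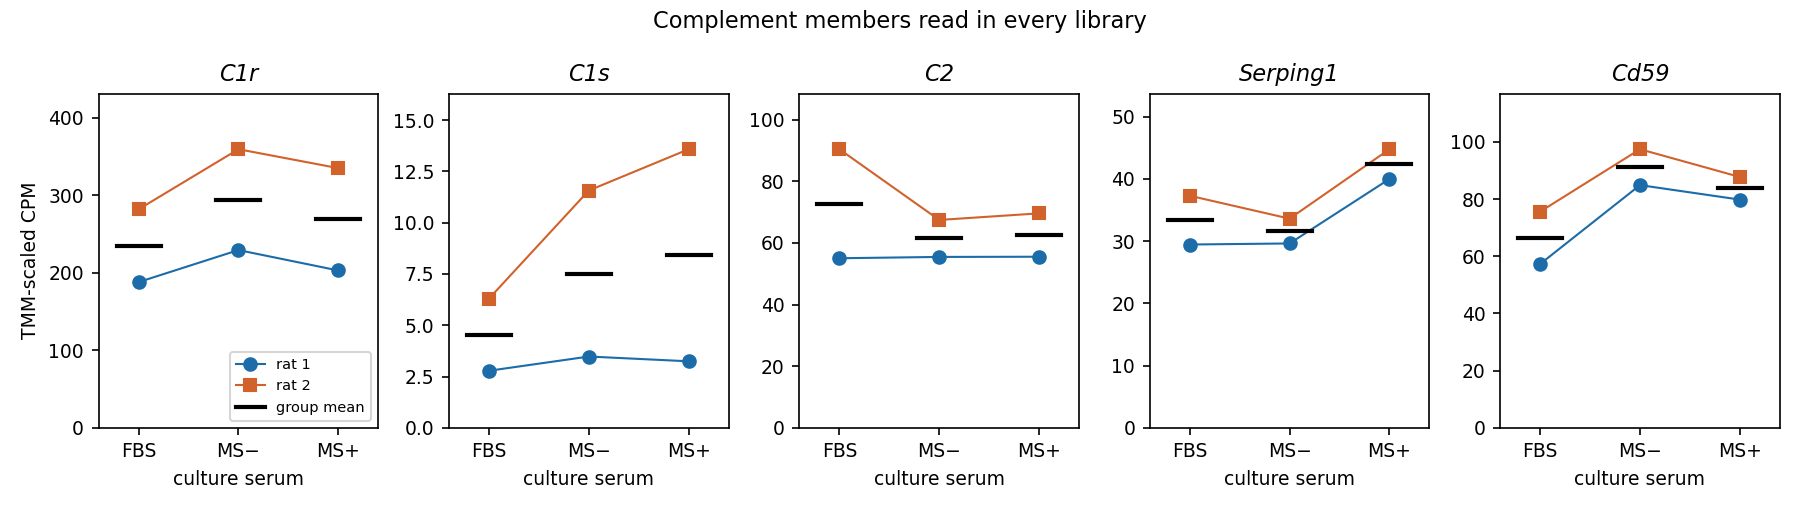
TMM-scaled CPM of the 5 complement members read in every library, by culture serum (horizontal axis), with 1 panel and 1 linear scale per gene; points are single libraries joined by rat and bars are the group mean of 2. Rat 2 lies above rat 1 in every panel and condition, Serping1 is highest in the MS+ pair (40.0 and 44.8 CPM), and Cd59 is lowest in the FBS pair (57.3 and 75.6 CPM).

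C1r encodes the protease that activates itself when C1q is bound and then cuts C1s. It (NM_001134555, chromosome 4, 160712582 to 160729354 in rn4, plus strand) measured 188 and 282 CPM in FBS, 229 and 360 CPM in MS-, and 203 and 335 CPM in MS+, for rats 1 and 2. The groups overlapped, since rat 2 exceeded rat 1 by more than the sera differed. Its mean was 235 ± 66.4 CPM in FBS, 294 ± 92.0 CPM in MS- and 269 ± 93.4 CPM in MS+ (SD, n = 2 each). Between MS- and FBS the log2 fold change of CPM + 1, the scale of all fold changes here, was 0.32 (SE 0.32, limma adjusted p 0.622). Within rats it was 0.29 and 0.35. With the rat as a block, which removes the level difference between the donors, C1r rose in MS- over FBS (SE 0.081, limma adjusted p 0.0112). The change of 0.18 between MS+ and FBS did not pass without the block (limma adjusted p 0.757) or with it (0.114). MS+ against MS- gave -0.14, with a 95% interval of -0.89 to 0.61 without the block and -0.31 to 0.03 with it.

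C1s, the protease that C1r activates and that cuts C4 and C2, lies beside C1r, with 6778 bases between the 2 rows. It (NM_138900, chromosome 4, 160736133 to 160748137, minus strand) measured 2.78 and 6.30 CPM in FBS, 3.48 and 11.6 CPM in MS-, and 3.24 and 13.6 CPM in MS+. All 3 libraries of rat 2 lay above all 3 of rat 1. The reads behind these values were few, 17, 19 and 18 in rat 1 and 38, 64 and 74 in rat 2, in the order FBS, MS- and MS+. Its log2 fold change was 0.51 between MS- and FBS (limma adjusted p 0.732, with the block 0.152), 0.58 between MS+ and FBS (0.637, with the block 0.0830) and 0.07 between MS+ and MS- (0.978, with the block 0.901). The 95% interval of the last difference was -1.6 to 1.73 without the block and -0.44 to 0.58 with it. The rise of MS+ over FBS was 0.17 in rat 1 and 1.00 in rat 2.

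The pair can be read as a ratio within each library. For every 100 reads of C1r there were 1.48, 1.52 and 1.6 reads of C1s in rat 1 and 2.23, 3.22 and 4.05 in rat 2, again for FBS, MS- and MS+. The ratio is of reads not corrected for length, and it was higher in every library of rat 2 than in any of rat 1.

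C2 is the protease subunit of the classical and lectin C3 convertase. The row (NM_172222, chromosome 20, 4051146 to 4071909, plus strand) measured 55.0 and 90.4 CPM in FBS, 55.4 and 67.4 CPM in MS-, and 55.5 and 69.6 CPM in MS+. Rat 1 gave nearly 1 level in the 3 sera, and the FBS library of rat 2 was the highest. The log2 fold change was -0.20 between MS- and FBS (limma adjusted p 0.686, with the block 0.248), with 0.01 in rat 1 and -0.42 in rat 2. For MS+ against FBS it was -0.18 (limma adjusted p 0.672, with the block 0.271). For MS+ against MS- it was 0.02, with a 95% interval of -0.55 to 0.59 without the block and -0.22 to 0.27 with it.

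Cfb, factor B, supplies the catalytic subunit of the alternative convertase, and its row starts 214 bases after the end of that of C2. In contrast to C2 it (NM_212466, chromosome 20, 4072124 to 4077801, plus strand) held 4 and 8 reads in FBS, 3 and 2 reads in MS-, and 3 and 2 reads in MS+. The FBS library of rat 2, at 1.33 CPM, was the only one above 1 CPM. Counts this close to the limit gave no test.

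C3, the component on which all pathways converge, was also hardly read. Its row (NM_016994, placed on the unassembled chromosome Un in rn4, minus strand) held 0 reads in both FBS libraries, 0 and 1 reads in MS-, and 0 and 4 reads in MS+. Only the MS+ library of rat 2 was above the limit, at 0.734 CPM. Cfd, factor D, which cuts factor B (NM_001077642, chromosome 7, 11325538 to 11327261, minus strand), had 2 reads in each MS- library and 0 in the other 4. It is best known as adipsin of fat cells. Cfi, factor I, which cuts C3b and C4b (NM_024157, chromosome 2, 227281621 to 227325109, plus strand), had 0 reads in all 6 libraries, which allows up to 0.491 to 0.551 CPM. No member row overlaps another row of the table. For these 3 genes no difference between sera was detectable at this depth.

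**Figure D2:**
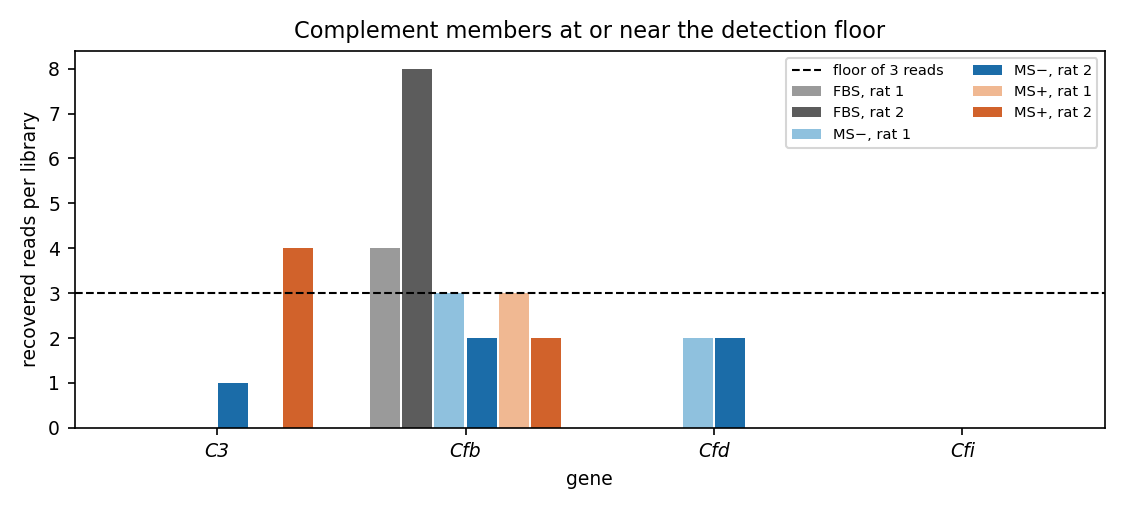
Recovered reads per library (vertical axis) of the 4 complement members at or near the limit of detection; each bar is 1 library and the dashed line marks 3 reads. Cfb reaches 8 reads in the FBS library of rat 2, C3 reaches 4 reads in the MS+ library of rat 2, Cfd has 2 reads in each MS- library and Cfi has none.

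Serping1 encodes C1 inhibitor, the serpin that traps C1r and C1s and also inhibits the kallikrein of the contact system. Its row (NM_199093, chromosome 3, 67968808 to 67978102, minus strand) measured 29.5 and 37.3 CPM in FBS, 29.6 and 33.6 CPM in MS-, and 40.0 and 44.8 CPM in MS+. Both MS+ libraries lay above the 4 others. Over all rows, 22.6% had both MS+ libraries above both MS- libraries, and 28.4% had them above both FBS libraries. The share with both MS+ libraries above all 4 others was not computed. Group means were 33.4 ± 5.54 CPM in FBS, 31.6 ± 2.82 CPM in MS- and 42.4 ± 3.38 CPM in MS+ (SD, n = 2 each). Between MS+ and MS- the log2 fold change was 0.41 (SE 0.15), a 1.33-fold difference, and it was nearly the same in the cells of each rat, 0.42 and 0.40. The limma adjusted p was 0.293 without the block and 0.0438 with it, over a range of 0.0339 to 0.632 among the alternatives. Against FBS the log2 fold change of MS+ was 0.34 (limma adjusted p 0.204, with the block 0.0466). Between MS- and FBS it was -0.07, with a 95% interval of -0.43 to 0.30 without the block and -0.33 to 0.19 with it (limma adjusted p 0.847 and 0.750).

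Some cell type markers also differed between MS+ and MS-. Of 11 fibroblast markers tested, 2 passed with the block and 0 without it, beside 10.1% of all rows with the block. By sign, 9 of the 11 were higher in MS+ and 2 lower, beside 4812 of 9820 rows higher over the whole table. The markers were read in the same libraries, so their signs are not independent. With the block, the fibroblast markers Pdgfra (0.34, limma adjusted p 0.0207) and Cdh11 (0.38, limma adjusted p 0.0103) were also higher in MS+ than in MS-, as was the lipase Lpl of the adipocyte list (1.05, limma adjusted p 0.00257). The summed level of the fibroblast list was 71285 to 73970 CPM in MS+ and 62837 to 65444 CPM in MS-, and that of the adipocyte list was 19.1 to 27.4 and 10.6 to 11.7 CPM. Most of the fibroblast sum is Col1a1, Col1a2, Col3a1 and Vim, none of which was called between MS+ and MS-. Adipoq, the defining adipocyte marker, had 0 reads in 5 of 6 libraries and 3 in the other. The part of these markers in the result was not tested.

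Cd59 encodes the membrane protein that blocks the last step, the insertion of C9 into the attack complex. Its most abundant row (NM_012925, chromosome 3, 89243599 to 89245129, plus strand) measured 57.3 and 75.6 CPM in FBS, 84.9 and 97.4 CPM in MS-, and 79.8 and 87.7 CPM in MS+. Both libraries of either rat serum lay above both FBS libraries, as they did for 28.4% of rows in MS+ and 27.1% in MS-. The means were 66.4 ± 12.9 CPM in FBS, 91.2 ± 8.87 CPM in MS- and 83.8 ± 5.60 CPM in MS+ (SD, n = 2 each). Between MS- and FBS the log2 fold change was 0.46 (SE 0.15), or 1.38-fold, with 0.56 in rat 1 and 0.36 in rat 2. The limma adjusted p was 0.151 without the block and 0.00402 with it, over a range up to 0.493 among the alternatives. In MS+ against FBS it was 0.34 (limma adjusted p 0.203, with the block 0.0190). In MS+ against MS- it was -0.12, with a 95% interval of -0.48 to 0.24 without the block and -0.33 to 0.10 with it.

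The table holds a second row of the same Cd59 accession on the same chromosome (89422202 to 89437106, minus strand). It measured 5.57 and 12.8 CPM in FBS, 13.9 and 14.5 CPM in MS-, and 11 and 12.3 CPM in MS+. It took 8.85% to 14.4% of the reads of the pair, and how reads were shared between near-identical copies is uncertain. The second row spans 14905 bases and the most abundant row only 1531. Which of them is the locus of the gene was not determined, and the Cd59 calls above are those of the shorter row. Between MS- and FBS its log2 fold change was 0.68 (limma adjusted p 0.299, with the block 0.0473), and between MS+ and FBS 0.41 (limma adjusted p 0.469, with the block 0.199).

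Between MS+ and MS-, 0 of the 5 tested members passed the adjusted threshold of 0.05 in limma, beside 0.0204% of all 9820 rows tested. Between MS+ and FBS it was 0 of 5 beside 9.61%, and between MS- and FBS 0 of 5 beside 4.81%. At an unadjusted p under 0.05 the counts were 1, 0 and 1, beside 1446, 2703 and 2074 of all rows. Without the block, edgeR, limma-voom and DESeq2 also called 0 in each. Over all rows edgeR called 3, 944 and 464, limma-voom 4, 912 and 437, and DESeq2 123, 811 and 535. None of the 5 members met the rule of the study (at least a 2-fold difference and p under 0.05 before adjustment). Of all rows, 1.24%, 5.3% and 3.62% met it. With the rat as a block the members called in limma were 1 (Serping1), 2 (Serping1 and Cd59) and 2 (C1r and Cd59), beside 10.1%, 28.2% and 20.5% of all rows called in either direction. With 5 members these counts are close to the background, and they are no result about complement genes as a group. The median log2 fold change of the 5 was 0.02, 0.34 and 0.32, beside -0.01, 0.00 and 0.01 over all rows. Both comparisons with FBS use the same FBS libraries, so they are not independent of each other.

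**Figure D3:**
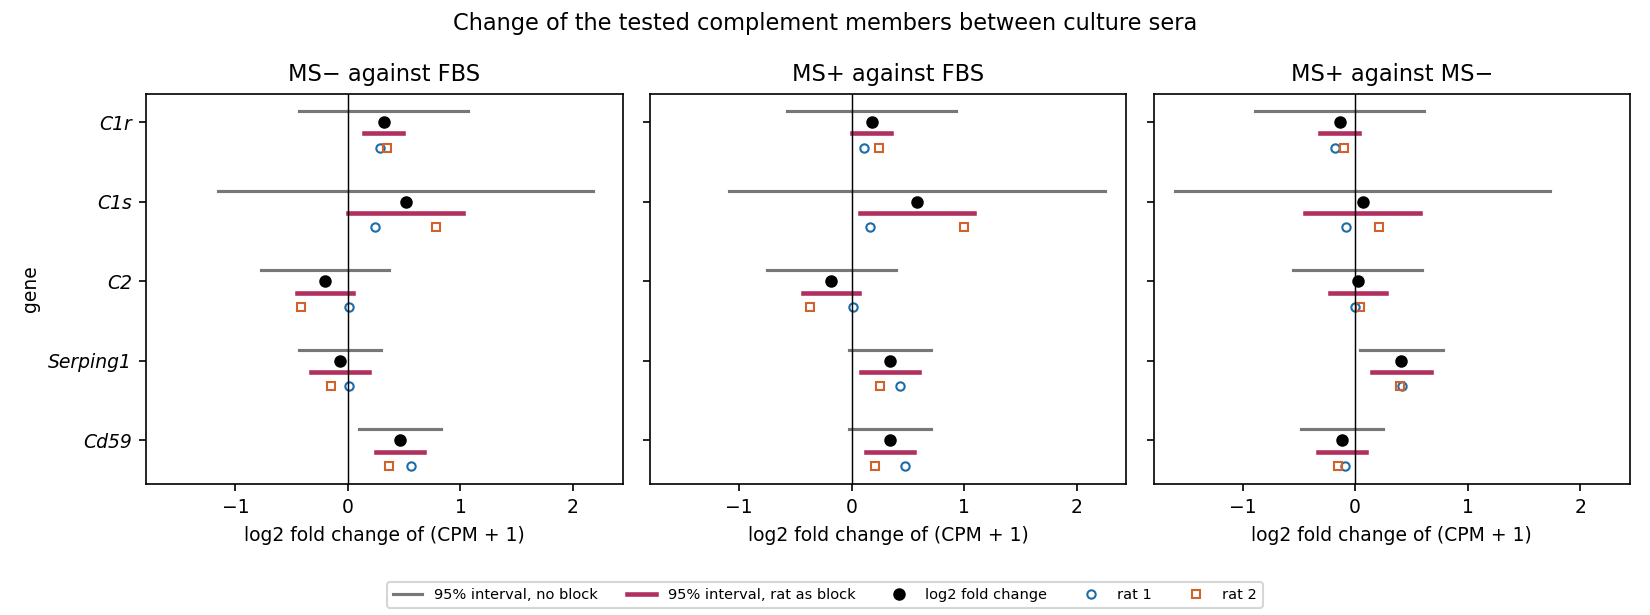
Log2 fold change of CPM + 1 (horizontal axis) of the 5 tested members in the 3 comparisons; black points are the estimates, lines the 95% intervals without (grey) and with (red) the rat as a block, and open symbols the differences within each rat. The grey intervals cross 0 except for Cd59 in MS- against FBS and Serping1 in MS+ against MS-, while the narrower red intervals also leave 0 for C1r and C1s in both comparisons with FBS and for Serping1 and Cd59 in MS+ against FBS.

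The cells of the 2 rats were compared for the 5 tested members. Cfb, near the limit of detection, was higher in rat 2 in only 1 of the 3 conditions. Rat 2 was above rat 1 in each of the 3 conditions for all 5 tested members, where 21.4% of all tested rows did so. For C1r, C1s and C2 all 3 libraries of rat 2 lay above all 3 of rat 1, where 6.74% of rows did so. The ratio of rat 2 to rat 1 was 2.26, 3.33 and 4.19 for C1s in FBS, MS- and MS+, and 1.5, 1.57 and 1.65 for C1r. It was 1.64, 1.22 and 1.25 for C2, 1.27, 1.13 and 1.12 for Serping1, and 1.32, 1.15 and 1.10 for Cd59. The gap was a small number of reads for Serping1, 162 and 186 in MS- and 222 and 244 in MS+, and for Cd59 in MS+, 443 and 478. With 2 donors this is a description of these 2 cultures and was not tested.

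The rows with the profile closest to that of C1r, as the root mean square difference of centred log2 values over the 6 libraries, were Magi2 (0.0598), Chka (0.0864) and Pc (0.0910). For Cd59 they were Ogt (0.0247), Ppp1r12a (0.0390) and RGD1563325 (0.0438). Ogt measured 92.3 and 121 CPM in FBS, 133 and 160 CPM in MS-, and 124 and 141 CPM in MS+. The rows of Pc and RGD1563325 overlap a row of another symbol, so their levels are uncertain.

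Outside the 9 members, 41 further complement genes were looked up, of which 35 had a row and 8 passed the filter. The 6 others (Colec11, C5, C7, C5ar1, C5ar2 and Itgax) were not analysed here. The recognition subunits C1qa and C1qc had 0 reads in all libraries and C1qb 1 read in all. The C4 rows, substrate of C1s, held at most 2 reads in any library, and as rows of close copies they are uncertain. C3ar1, the receptor of the C3a fragment, had 0 reads.

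Among the membrane inhibitors, Cd55, the decay accelerating factor that takes C3 convertases apart, showed the largest change. Its row (NM_022269, chromosome 13, 43322246 to 43348334, minus strand) measured 13.9 and 16.4 CPM in FBS, 63.5 and 54.8 CPM in MS-, and 79.1 and 77.6 CPM in MS+. The 3 pairs did not overlap, with FBS lowest and MS+ highest. Taken 1 comparison at a time, 28.4% of rows had both MS+ libraries above both FBS libraries. For MS- above FBS it was 27.1%, and for MS+ above MS- 22.6%. Cd55 rose over FBS by 2.30 in MS+ (SE 0.13, limma adjusted p 0.000864) and by 1.90 in MS- (SE 0.13, limma adjusted p 0.00185). Among the alternatives the adjusted p reached at most 0.0269 and 0.0265. Between MS+ and MS- the log2 fold change was 0.40 (limma adjusted p 0.242, with the block 0.0545), and edgeR with the block called it (adjusted p 0.0224). Cd46, the cofactor protein for factor I, held 2 to 7 reads, and Cr1l, a membrane inhibitor of rodents, had 0 reads on rows that share 1 span, where reads could not be assigned, so its level is uncertain.

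Masp1, a protease of the lectin pathway (NM_022257, chromosome 11, 79532504 to 79602755, plus strand), measured 17.2 and 21.9 CPM in FBS, 23.2 and 49.0 CPM in MS-, and 28.3 and 81.7 CPM in MS+. Its log2 fold change was 1.27 in MS+ over FBS (limma adjusted p 0.167, with the block 0.000169) and 0.77 in MS- over FBS (0.448, with the block 0.0103). Clu, clusterin, a soluble inhibitor of the terminal complex (NM_053021, chromosome 15, 45365779 to 45405314, plus strand), measured 25.2 and 40.8 CPM in FBS, 44.6 and 55.3 CPM in MS-, and 53.3 and 49.0 CPM in MS+. The log2 fold change was 0.66 in MS+ over FBS (limma adjusted p 0.118, with the block 0.00415) and 0.62 in MS- over FBS (0.184, with the block 0.00855). The row of Clu overlaps a row of another symbol and is uncertain.

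Of the 8 tested genes of this list, 1 (Cd55) was higher in MS+ than in FBS without the block and 4 with it, the others being Masp1, Clu and the scavenger receptor Colec12 (0.65, with the block limma adjusted p 0.0350). Colec12 went from 45 reads in FBS to 93 in MS+ in rat 1, and from 44 to 47 in rat 2. Between MS- and FBS, Cd55 alone passed without the block. With it 3 rose (Cd55, Masp1 and Clu), and C1qbp, a mitochondrial protein that can bind C1q, was lower (-0.39, with the block limma adjusted p 0.0171). In MS+ against MS- 0 passed in limma without the block or with it, beside 0.0204% and 10.1% of all rows. At an unadjusted p under 0.05 these fits had 1 and 3 genes, beside 1446 and 2420 of all rows. In this comparison edgeR with the block called Cd55 and Masp1 (0.57, adjusted p 0.0418), beside 1015 of all rows. Over all rows limma called 9.61% without the block and 28.2% with it in MS+ against FBS, and 4.81% and 20.5% in MS- against FBS. Over the 8 tested genes the median log2 fold change was 0.44 in MS+ and 0.35 in MS- over FBS, and 0.12 between MS+ and MS-. Over all rows these medians were 0.00, 0.01 and -0.01.

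**Figure D4:**
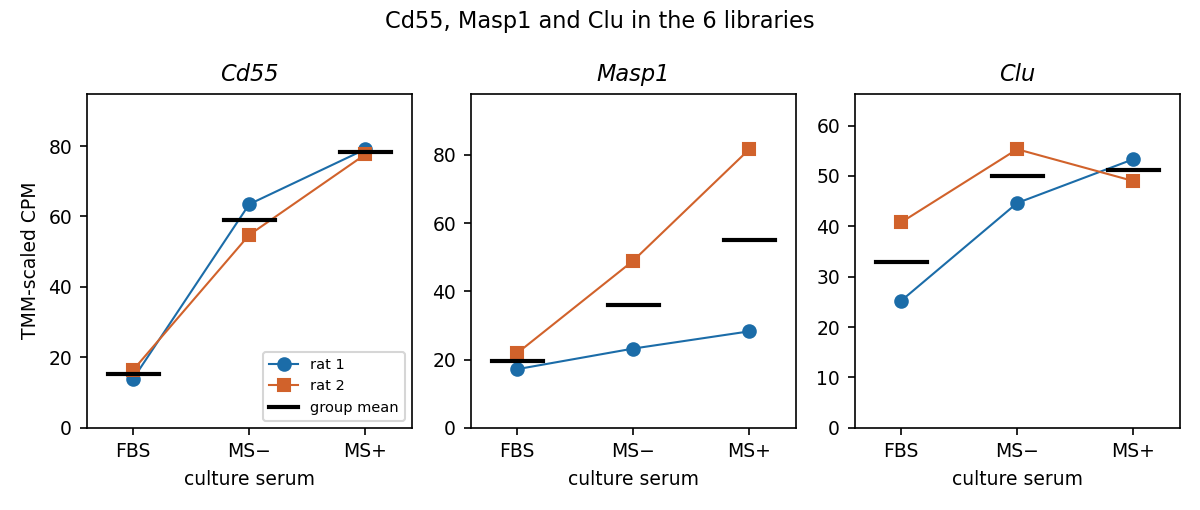
TMM-scaled CPM of Cd55, Masp1 and Clu by culture serum (horizontal axis), with 1 linear scale per gene; points are single libraries joined by rat and bars are the group mean of 2. Cd55 goes from 13.9 and 16.4 CPM in FBS to 79.1 and 77.6 CPM in MS+ with the rats close together, while rat 2 is the higher donor for Masp1 in each condition.

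Cytokines and transcription factors that are known to raise complement genes were read from the same libraries. Of 25 genes, 23 had a row and 18 were tested. The ligands Ifng, Il1b and Tnf had 0 reads in all 6 libraries, though the row of Tnf overlaps one of another symbol and is uncertain. Cebpb, the C/EBP factor of the acute phase response, measured 58.6 and 49.4 CPM in FBS, 102 and 92.7 CPM in MS-, and 121 and 122 CPM in MS+. It rose over FBS by 1.16 in MS+ (limma adjusted p 0.00515) and by 0.84 in MS- (limma adjusted p 0.0124). The call of Cebpb was lost for MS+ without MS+ replicate 1 (0.0523), and for MS- without FBS replicate 2 (0.0532), MS- replicate 1 (0.1) or MS- replicate 2 (0.0593), the replicate being the rat number. The direction was kept in each of these settings.

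Further genes of that list passed with the block only. Il6, a cytokine of the acute phase, measured 14.2 and 9.95 CPM in FBS, 7.13 and 6.15 CPM in MS-, and 6.31 and 2.39 CPM in MS+. With the block it fell by 1.38 in MS+ against FBS (limma adjusted p 0.000471) and by 0.76 in MS- against FBS (limma adjusted p 0.0332). The interferon factor Irf1 fell by 0.77 in MS+ against FBS (with the block, limma adjusted p 0.0139), while the sterol receptor Nr1h3 rose by 0.83 (0.0207). In MS- over FBS the receptor Il6r rose by 0.94 (with the block, limma adjusted p 0.0378), the receptor Il1r1 by 0.49 (0.0301) and Cebpa by 0.62 (0.00884). Most of the rise of Il6r lay in rat 2, with 6 reads in FBS and 26 in MS-, beside 22 and 27 in rat 1. Cebpa went from 177 reads in FBS to 301 in MS- in rat 1, and from 94 to 110 in rat 2. Nr1h3 went from 29 reads in FBS to 38 in MS+ in rat 1, and from 28 to 66 in rat 2. The cytokine Lif fell by 0.77 in MS+ against MS- (with the block, limma adjusted p 0.0190). It was the only gene of the list called, beside 10.1% of all rows. In all, 2 genes rose and 2 fell in MS+ against FBS with the block, and 4 rose and 2 fell in MS- against FBS, of 18 genes tested, beside 28.2% and 20.5% of all rows called. Over the 18 genes the median log2 fold change was 0.10 in MS+ and 0.15 in MS- against FBS, and -0.07 between MS+ and MS-.

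Some fibroblast markers also moved in the comparisons with FBS. The summed level of the list was 81176 to 88031 CPM in FBS, above the range of both rat sera. With the block, Col1a1, Col1a2, Col3a1 and Thy1 were lower in MS- than in FBS, by 0.66, 0.50, 0.32 and 0.37 on the log2 scale. These are 4 of 11 markers tested, beside 20.5% of all rows called. In MS+ against FBS, Col1a1 was lower by 0.46, and Vim, Pdgfra, Cdh11 and Fap were higher by 0.37, 0.33, 0.24 and 0.92. Of the same 11 markers, 4 were thus higher and 1 lower, beside 28.2% of all rows called. Most of the rise of Fap lay in rat 1, with 17 reads in FBS and 51 in MS+, beside 21 and 27 in rat 2. Without the block 0 fibroblast markers passed in limma. At an unadjusted p under 0.05 there were 1 and 2 in MS+ and MS- against FBS, beside 2703 and 2074 of all rows. Of the adipocyte list, Lpl was lower in MS- than in FBS with the block (-0.57, limma adjusted p 0.0446), and Cd14 of the macrophage list stood at 0.47 on the log2 scale (limma adjusted p 0.185, with the block 0.0552). The part of these markers in the changes of C1r, Cd59 and Cd55 was not tested.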

How the data were processed

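A sequencing company produced the reads of the 6 libraries and removed poor ones. Per the labels and the study's methods, the authors aligned reads to rn4 with Bowtie2 2.1.0 and counted them per transcript with HTSeq 0.5.4p3 (intersection-nonempty mode). Whether strand was used was not stated. The deposited values are a normalized signal, CPM scaled by TMM in edgeR. Dividing each column by the worth of 1 read gave whole reads for 100% of values (tolerance 1e-06), so depth is known. The deposited table has 17221 rows.

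Rows with at least 1 CPM in both libraries of any group (9820) were tested on log2(CPM + 1) with limma 3.58.1 (trended eBayes, two-sided, condition as the only term, all 6 libraries) in R 4.3.3, with Benjamini-Hochberg adjustment over all of them. The libraries of each group carry replicate numbers 1 and 2, read here as the same 2 rats. Differences between the rats correlated over rows by 0.616 (FBS, MS-), 0.494 (FBS, MS+) and 0.590 (MS-, MS+). The libraries were therefore paired by number, and a fit with the rat as block was run beside the fit on condition alone. Libraries of a group were not copies (chi-square per degree of freedom 13.6 to 15.1). Alternatives included edgeR 4.0.16 and DESeq2 1.42.0 on the recovered reads. Scripts were tested on simulated data with 200 changed genes.

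The members and lists were chosen with earlier results of these data known. Named were all members, listed genes past the adjusted threshold in either limma fit (at most 8 per list by size of change), 6 partner, inhibitor and receptor genes, and the 3 profiles nearest to each of the 2 members of highest mean CPM. Genes and markers were matched by symbol through the RefSeq table of GRCr8, which named 93.9% of rows. Some results are not reported here. Coordinates are those of the file, 1-based, in rn4.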

Additional observations from a re-analysis of the deposited data

Results flagged for a closer look

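Serping1 was noted because the difference between its responses to the rat sera passed a direct test in limma with the rat as a block. Against FBS its log2 fold change was 0.34 in MS+ and -0.07 in MS-. The difference was 0.41 (0.42 in rat 1 and 0.40 in rat 2). Its limma adjusted p was 0.0438 with the block, beside 10.1% of all rows called, and 0.293 without it. DESeq2 without the block gave an adjusted p of 0.632.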

How the results depend on the processing

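With the replicate block the count of members called moved from 0 to 1 (MS+ against MS-), 2 (MS+ against FBS) and 2 (MS- against FBS) in limma, and to 1, 3 and 2 in edgeR, where the third was C1s (adjusted p 0.0256). The block changed no other call of a member in limma. Every setting without the block kept the count at 0.

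With 1 library left out, log2 fold changes that changed sign ranged as follows. Between MS+ and MS- they were -0.82 to 0.96 for C1s, -0.50 to 0.22 for C1r, -0.14 to 0.18 for C2, -0.25 to 1.25 for Masp1 and -0.11 to 0.19 for Clu. Between MS+ and FBS they were -0.31 to 1.47 for C1s, -0.18 to 0.54 for C1r and -0.53 to 0.17 for C2. Between MS- and FBS they were -0.23 to 1.26 for C1s, -0.00585 to 0.64 for C1r, -0.56 to 0.15 for C2 and -0.23 to 0.10 for Serping1. Dropping a library leaves 1 rat in a group. With all 6 libraries, none of these changes was called in limma without the block. With the block, C1r in MS- against FBS was called in limma and in edgeR. C1s in MS+ against FBS and Masp1 in MS+ against MS- were called in edgeR with the block. Others kept their sign but moved by over 1.5 times in at least 1 direction. Those in MS+ over FBS were Masp1 (2.02 and 0.52 without MS+ replicates 1 and 2) and, without FBS replicates 1 and 2, Clu (0.32 and 0.99), Cd59 (0.14 and 0.54) and Serping1 (0.18 and 0.51). Those in MS- over FBS were Masp1 (1.29 and 0.25 without MS- replicates 1 and 2), and, without FBS replicates 1 and 2, Clu (0.28 and 0.95) and Cd59 (0.26 and 0.66).

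Rows called over the whole table (2, 944 and 472, in the order above) depended on the setting. They were 987, 2773 and 2011 with the block in limma and 1015, 2861 and 2073 in edgeR, 0, 586 and 255 with no filter, 0, 609 and 278 with the 4 libraries compared, and 0, 25 to 602 and 105 to 280 with 1 library left out. DESeq2 gave 123 and limma-voom 4 between MS+ and MS-. By the study rule, 122 rows between MS+ and MS- became 215 with a pseudocount of 0.1, 234 in edgeR, 215 in limma-voom, 289 in edgeR with the block, and 125 to 206 without 1 library. The 355 between MS- and FBS became 537 in edgeR with the block. The second Cd59 row was added as an alternative after seeing the data. Depth limits C3, Cfb, Cfd and Cfi, which rest on 0 to 8 reads.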
